A study of Mus musculus with 3 samples.

Results

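Serum response factor (SRF), its myocardin-family co-activators, the Hippo pathway effectors YAP and TAZ, a TEAD factor and 3 of their targets were followed in perivascular and stromal cells of the embryonic aorta. The genes were chosen by symbol, as Srf, Myocd, Mkl1, Mkl2, Yap1, Wwtr1, Tead1, Ankrd1, Ctgf and Cyr61, and all 10 were found among the 47007 symbols of the expression table. Cells came from the aorta-gonad-mesonephros region (AGM) of wild-type C57BL/6J mouse embryos at embryonic day 11, and the embryos of a litter were pooled before sorting. Flow cytometry removed CD31+, CD45+ and cKit+ cells from all groups. Double-positive (DP) cells, labelled as vascular smooth muscle cells, were NG2+ PDGFRβ+. PDGFRβ-single (PDGFRβ-S) cells, labelled as sub-vascular smooth muscle cells, were NG2- PDGFRβ+. Double-negative (DN) cells, labelled as stroma, were NG2- PDGFRβ-, although in the study's text their PDGFRβ is low to negative. Each population gave 1 bulk RNA-seq library, so no p-value can be given, and all differences describe these 3 libraries. A pooled sort cannot tell fewer expressing cells from less RNA per cell.

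SRF is a transcription factor that binds a DNA element called the CArG box. Myocardin (Myocd) and the myocardin-related factors (MRTFs; Mkl1 encodes MRTF-A and Mkl2 encodes MRTF-B) are its co-activators for genes of the cytoskeleton and of contraction, whereas ternary complex factors such as Elk1 pair with SRF on immediate early genes. MRTFs are held in the cytoplasm by monomeric actin and enter the nucleus when actin polymerizes. YAP (Yap1) and TAZ (Wwtr1) are co-activators of the TEAD factors. Kinases of the Hippo pathway phosphorylate them, which keeps them out of the nucleus, and tension in the actin cytoskeleton favors their nuclear entry. Both branches are thus controlled largely by where proteins are in the cell, which RNA-seq does not measure. Ankrd1, Ctgf and Cyr61 are widely used as readouts of YAP-TEAD activity, and Ctgf and Cyr61 also respond to MRTF-SRF.

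To show where the recognition motifs lie near these genes, RefSeq promoter windows (250 bases before the start site to 50 after it, GRCm38.p6) were searched on both strands for the CArG box and for the TEAD motif GGAATG. Entries were found for 7 of the 10 genes, with 11 start sites. Myocd, Tead1 and Ctgf had none. The stretches below are those of the targets Ankrd1 and Cyr61, of Srf, and of Yap1 and Wwtr1, shown because they hold the matches described next. Each is printed 5′ to 3′ on the strand of its gene, with matches in capitals. In Cyr61 the capitals read the TEAD motif on the opposite strand, and in Srf they are CArG boxes.
Ankrd1, chr19:36119935-36120074, minus strand: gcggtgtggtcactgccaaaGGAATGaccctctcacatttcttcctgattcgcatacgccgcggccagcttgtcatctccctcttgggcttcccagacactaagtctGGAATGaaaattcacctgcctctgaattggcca
Cyr61, chr3:145650046-145650125, minus strand: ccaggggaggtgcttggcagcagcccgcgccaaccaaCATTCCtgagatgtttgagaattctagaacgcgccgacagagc
Srf, chr17:46556193-46556272, minus strand: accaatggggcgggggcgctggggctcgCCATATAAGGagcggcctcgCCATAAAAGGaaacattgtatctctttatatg
Yap1, chr9:8004707-8004756, minus strand: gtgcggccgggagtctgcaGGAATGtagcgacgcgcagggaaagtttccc
Wwtr1, chr3:57576021-57576070, minus strand: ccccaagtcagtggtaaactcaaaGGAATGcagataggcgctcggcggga

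The TEAD motif was present in the windows of 5 of the 7 genes (Mkl2, Yap1, Wwtr1, Ankrd1 and Cyr61), beside 16.6% of the 27025 genes with a RefSeq window and 14.7% of all 32851 windows. Ankrd1 held it at positions -210 and -123 from the start site, and Cyr61 at -103. In Yap1 it began at -141, in Wwtr1 at -136 (-170 from the second start site), and in Mkl2 at -81 of 1 of 3 start sites. The CArG box was found in Srf alone among the 7, at -82 and -62, beside 1.81% of all genes and 1.63% of all windows. Mkl1 held neither motif. No CArG box overlapped a TEAD motif, and a match is a run of letters and not a measured binding site. Motif content did not follow the levels given below, since genes holding the TEAD motif included the targets highest in DP (Ankrd1 and Cyr61) and co-activators that were lower there (Yap1, Wwtr1 and Mkl2).

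**Figure D1:**
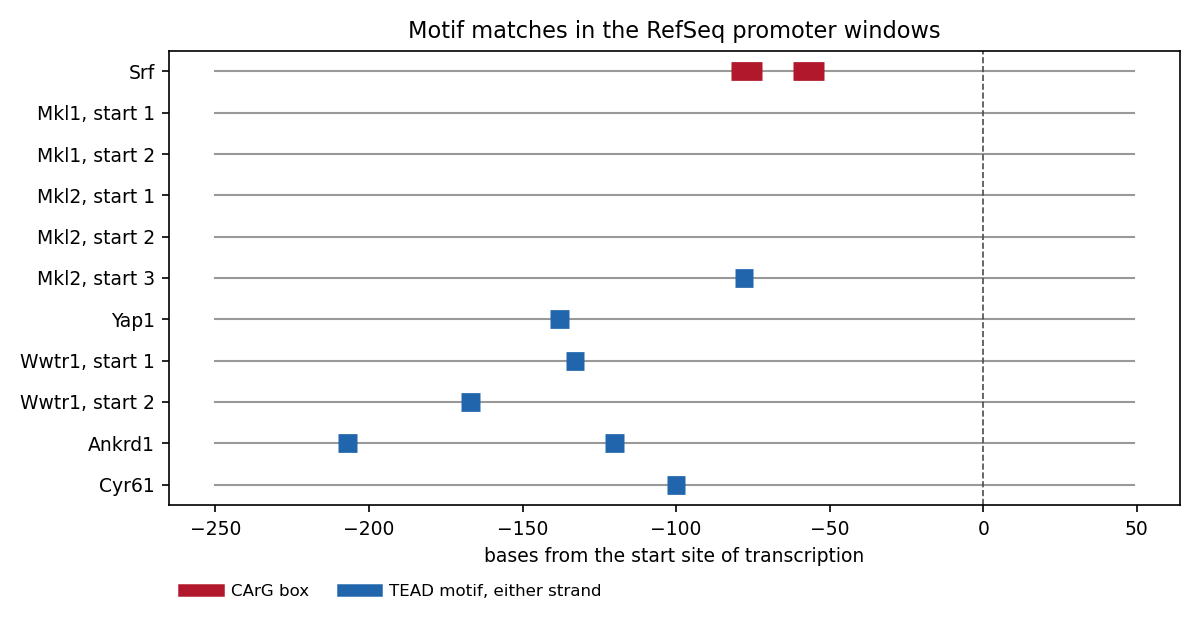
Motif matches in the RefSeq promoter windows of the 7 genes with an entry, 1 line per start site, plotted as bases from the start site (dashed line). CArG boxes are red and TEAD motifs blue. Srf carries a pair of CArG boxes, and Ankrd1 is the only line with more than 1 TEAD motif.

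The libraries held 10754241 to 13033219 reads on genes, recovered from the deposited values, which are TPM (each gene's length-corrected share of all transcripts). The DP library differed from the others in composition. Nuclear protein-coding genes took 56.5% of its TPM, against 43.4% in PDGFRβ-S and 46.3% in DN. Its ribosomal RNA took 12.3%, against 0.624% in PDGFRβ-S and 1.14% in DN, and mitochondrial transcripts took 10.5%, 25.5% and 24.4% in the same order. The sort genes were higher in the populations gated as positive for them. DP, PDGFRβ-S and DN had 35.1, 14.3 and 7.32 TPM of Pdgfrb and 10.5, 0.485 and 1.31 TPM of Cspg4 (NG2). Pdgfrb was thus still present in DN, and Cspg4 was higher in DN than in PDGFRβ-S, although both were gated as NG2-. The summed level of 10 smooth muscle markers was 9720 TPM in DP, against 386 in PDGFRβ-S and 187 in DN. All 10 were at 1 TPM or more in DP, against 7 in PDGFRβ-S and 6 in DN. By the summed level the label of the DP library was borne out by its markers, although Synpo2 was higher in DN. Intervals in the text are 95% counting intervals (exact Poisson for a level, exact binomial for a ratio). They cover counting error only and not the variation between sorts or embryos. A gene was called higher or lower when (TPM + 1) differed at least 2-fold and the higher library had 5 TPM or more.

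Among the targets, Ankrd1, Ctgf and Cyr61 were all high in DP. Ankrd1 (chromosome 19, 36111965 to 36119844, mm10, minus strand) encodes an ankyrin repeat protein of muscle. It was at 227 TPM in DP and had 0 reads in both PDGFRβ-S and DN. With 3 reads per library taken as the floor, the floor was 0.123 TPM in PDGFRβ-S and 0.115 TPM in DN. At the gene length taken here, DP was at least 1850-fold higher than PDGFRβ-S and at least 1976-fold higher than DN. This length has more than 1 solution because reads came from DP alone. Of the pair nearest to the annotated length the shorter one, giving 4656 reads in DP, was taken for the bound. A shorter solution farther from the annotation, 3530 bases with 3104 reads in DP, lowered the bounds to 1233-fold over PDGFRβ-S and 1317-fold over DN.

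Ctgf (chromosome 10, 24595442 to 24598683, plus strand) encodes connective tissue growth factor, a matricellular protein of the CCN family. It was at 40.3 TPM in DP (37.5 to 43.3, 742 reads), against 1.14 in PDGFRβ-S (0.738 to 1.68, 25 reads) and 1.58 in DN (1.11 to 2.18, 37 reads). Only the DP library carried it at more than a trace. DP was 35.4-fold above PDGFRβ-S (23.8 to 55.0) and 25.5-fold above DN (18.3 to 36.5). The ratio of PDGFRβ-S over DN, 0.722, had an interval that included 1 (0.416 to 1.23). An antisense gene, Gm15270, covers 23.2% of the exon bases of Ctgf, and in these unstranded libraries the reads of such a pair cannot be told apart. Gm15270 was listed at 11.7 TPM in DP, against 3.70 in PDGFRβ-S and 1.86 in DN.

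Cyr61 (chromosome 3, 145646976 to 145649981, minus strand) encodes another matricellular CCN protein and was the most abundant target in PDGFRβ-S and DN. It was at 222 TPM in DP (212 to 233, 1735 reads), against 27.1 in PDGFRβ-S (23.8 to 30.6, 252 reads) and 11.3 in DN (9.27 to 13.6, 112 reads). Its levels therefore stepped down across the populations with no overlap of the intervals. DP was 8.20-fold above PDGFRβ-S (7.19 to 9.40) and 19.7-fold above DN (16.3 to 24.1), and PDGFRβ-S was 2.40-fold above DN (1.92 to 3.03). Cyr61 was the only one of the 10 genes called between PDGFRβ-S and DN.

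Myocd (chromosome 11, 65176561 to 65269989, minus strand), the co-activator restricted to cardiac and smooth muscle, was the only regulator called higher in DP. It was at 14.4 TPM in DP (13.4 to 15.6, 687 reads), against 1.60 in PDGFRβ-S (1.29 to 1.97, 91 reads) and 1.93 in DN (1.60 to 2.31). DP stood apart, and the other libraries overlapped within counting error. The ratio was 9.0 over PDGFRβ-S (7.22 to 11.3) and 7.48 over DN (6.14 to 9.17), whereas PDGFRβ-S over DN was 0.831 (0.625 to 1.10).

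The ubiquitous co-activators were split. Mkl1 (chromosome 15, 81012281 to 81190757, minus strand) was scarce, at 2.05 TPM in DP (1.61 to 2.56, 76 reads), against 0.543 in PDGFRβ-S (0.348 to 0.808, 24 reads) and 0.529 in DN (0.343 to 0.782, 25 reads). DP was 3.87-fold above DN (2.43 to 6.35) and 3.77-fold above PDGFRβ-S (2.36 to 6.25), with intervals above 2-fold in both cases. Its level was under the 5 TPM limit, so it was not among the genes called, and with 1 TPM added to each level its log2 ratio of DP over DN was 0.995.

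Mkl2 (chromosome 16, 13256481 to 13417529, plus strand) ran the other way. It was at 14.9 TPM in DP (13.8 to 16.0, 707 reads), against 22.5 in PDGFRβ-S (21.3 to 23.8, 1277 reads) and 27.4 in DN (26.1 to 28.7, 1658 reads). The 3 intervals did not overlap on the deposited scale, and DP was lowest. DP was 1.84-fold below DN (1.69 to 2.01) and 1.52-fold below PDGFRβ-S (1.38 to 1.66), short of the 2-fold limit. After TPM were rescaled to nuclear protein-coding genes, Mkl2 passed the limit, with a log2 ratio of -1.11 for DP over DN in place of -0.84.

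The level summed over the myocardin family differed little between libraries on the deposited scale, but its makeup differed. The sum was 31.3 TPM in DP, against 24.7 in PDGFRβ-S and 29.8 in DN. Myocd gave 46.1% of the family TPM in DP (43.5 to 48.7), against 6.51% in PDGFRβ-S (5.27 to 7.93) and nearly as much, 6.48%, in DN (5.39 to 7.71). Mkl2 gave 47.4% in DP, against 91.3% in PDGFRβ-S and 91.7% in DN. PDGFRβ-S and DN were thus alike within counting error in the share of Myocd, and on the deposited scale DP carried Myocd and Mkl2 at nearly equal levels. Where exons of a gene overlap, dividing by their sum gave whole reads for 64.7% of genes and dividing by the merged length for 0.248%, so levels of genes with many alternative exons may be lowered. With merged exons the share of Myocd was 54.0% in DP, against 8.85% in PDGFRβ-S and 8.81% in DN. That of Mkl2 was 39.7% in DP, against 88.7% in PDGFRβ-S and 89.2% in DN. The sum of the family was not taken with merged exons.

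Srf itself (chromosome 17, 46546839 to 46556162, minus strand) was low in every library and did not follow its muscle co-activator. It was at 2.65 TPM in DP (1.91 to 3.59, 42 reads), against 3.34 in PDGFRβ-S (2.57 to 4.27, 63 reads) and 4.02 in DN (3.19 to 4.99, 81 reads). Neighbors in this order overlapped. DP was 1.51-fold below DN, with an interval that came close to 1 (1.03 to 2.25), and the interval against PDGFRβ-S included 1 (0.839 to 1.91, 1.26-fold below). At this depth a 2-fold lower level in DP lay within the interval against DN, and a 2-fold higher level lay outside both intervals.

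Yap1, Wwtr1 and Tead1 were each lowest in DP, where the targets were highest. Yap1 (chromosome 9, 7931999 to 8004596, minus strand) was at 6.96 TPM in DP (6.19 to 7.79, 300 reads), against 9.86 in PDGFRβ-S (9.02 to 10.8, 507 reads) and 11.3 in DN (10.4 to 12.2, 620 reads). DP was 1.62-fold below DN (1.41 to 1.87) and 1.42-fold below PDGFRβ-S (1.23 to 1.64). PDGFRβ-S and DN were close, with a ratio of 0.874 (0.775 to 0.984).

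Wwtr1 (chromosome 3, 57455649 to 57575910, minus strand), which encodes TAZ, was at 9.46 TPM in DP (8.42 to 10.6, 301 reads), against 14.7 in PDGFRβ-S (13.5 to 15.9, 556 reads) and 16.1 in DN (14.9 to 17.4, 651 reads). DP was 1.70-fold below DN (1.48 to 1.95) and 1.55-fold below PDGFRβ-S (1.35 to 1.79). Levels in PDGFRβ-S and DN overlapped, with a ratio of 0.912 (0.813 to 1.02).

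Tead1 (chromosome 7, 112679318 to 112906807, plus strand), the DNA-binding partner, was at 4.40 TPM in DP (3.98 to 4.84, 415 reads), against 6.91 in PDGFRβ-S (6.43 to 7.41, 777 reads) and 7.55 in DN (7.07 to 8.06, 907 reads). Its order was again DP below the other libraries, which overlapped (ratio of PDGFRβ-S over DN 0.915, 0.830 to 1.01). DP was 1.72-fold below DN (1.53 to 1.93) and 1.57-fold below PDGFRβ-S (1.39 to 1.77). None of Yap1, Wwtr1 and Tead1 reached 2-fold.

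**Figure D2:**
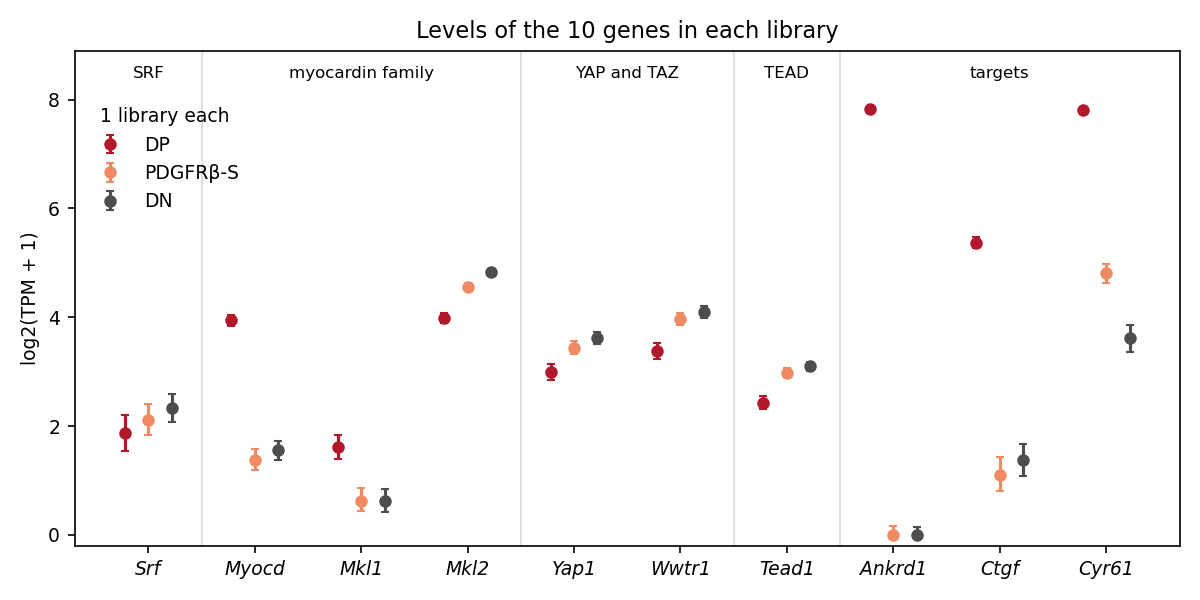
Levels of the 10 genes, as log2(TPM + 1), in the DP (red), PDGFRβ-S (orange) and DN (gray) libraries. Bars are 95% counting intervals. DP is highest for Myocd, Mkl1 and the 3 targets and lowest for Srf, Mkl2, Yap1, Wwtr1 and Tead1.

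YAP and TAZ transcripts kept nearly the same proportion across populations while their sum differed. Together they came to 16.4 TPM in DP, against 24.5 in PDGFRβ-S and 27.4 in DN. Yap1 made up 42.4% of that sum in DP (38.4 to 46.4), against 40.2% in PDGFRβ-S (37.3 to 43.2) and likewise 41.3% in DN (38.6 to 44.0). The intervals overlapped throughout. With merged exon lengths the share of Yap1 was 34.0%, 32.0% and 33.0% in the same order.

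The other TEAD genes did not share the pattern of Tead1. Tead2, the paralogue best known from early embryos, was at 23.7 TPM in DP, against 17.0 in PDGFRβ-S and 22.2 in DN and led the TEAD transcripts in each library on this scale. It gave 80.5% of the family TPM in DP, against 67.7% in PDGFRβ-S and 72.1% in DN, while Tead1 gave 15.0% (13.5 to 16.6), 27.6% (25.5 to 29.7) and 24.6% (22.9 to 26.3). Tead1 took its smallest share in DP, without overlap of the intervals. As shares of reads, not divided by length, Tead1 gave 35.5% in DP, against 54.3% in PDGFRβ-S and 50.5% in DN. Tead2 gave 61.0%, 42.6% and 47.4%, so that Tead1 led outside DP on this scale alone. With merged exon lengths Tead2 gave 80.2%, 66.6% and 70.9% and Tead1 16.4%, 29.9% and 26.6%, so that Tead2 led in each library. DP, PDGFRβ-S and DN had 1.27, 1.14 and 0.847 TPM of Tead3 and 0.0529, 0.0444 and 0.166 TPM of Tead4. The family sum was 29.4 TPM in DP, against 25.1 in PDGFRβ-S and 30.7 in DN, so the total of TEAD transcripts did not follow Tead1.

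**Figure D3:**
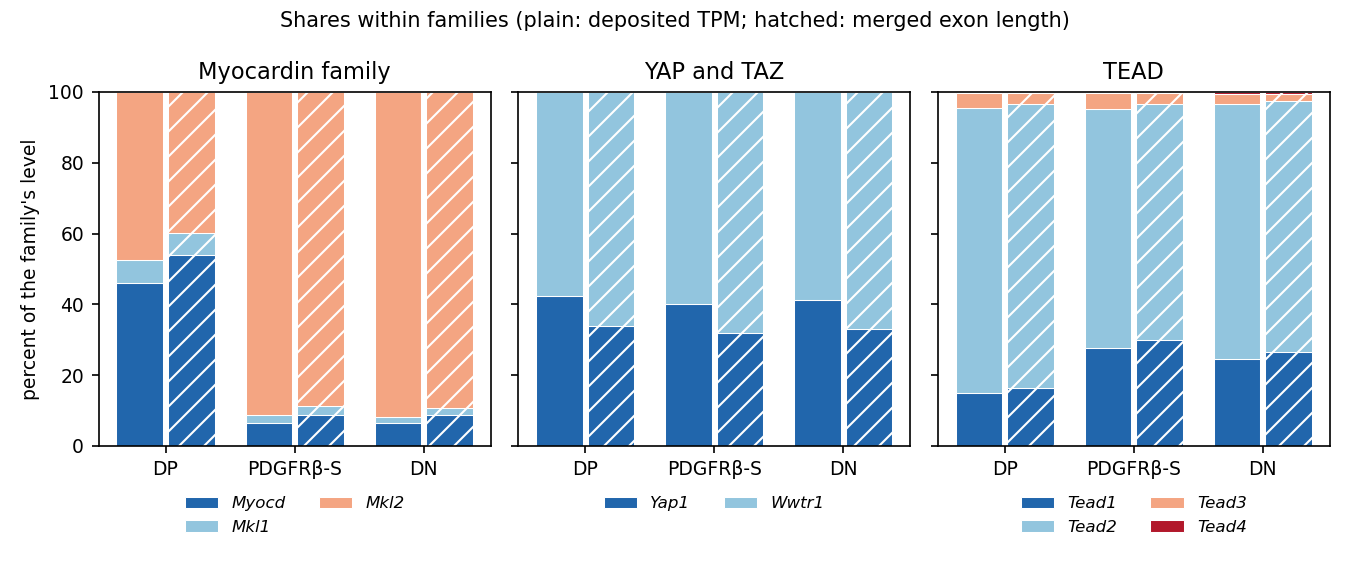
Share of each paralogue (percent) in its family, in DP, PDGFRβ-S and DN, on the deposited TPM (plain bars) and with merged exon lengths (hatched bars). Myocd makes up 46.1% of the myocardin family in DP, against 6.51% in PDGFRβ-S and 6.48% in DN, whereas the proportion of Yap1 to Wwtr1 is nearly level.

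By the 2-fold limit, 8 of the 10 genes could be counted for DP over DN, and 4 of them (Ankrd1, Ctgf, Cyr61 and Myocd) were higher and 0 lower. Over all 11288 genes that passed the level filter, 16.9% were higher and 19.1% lower. For DP over PDGFRβ-S the same 4 genes were higher and 0 of 8 lower, beside 28.3% higher and 12.5% lower among 10550 genes. For PDGFRβ-S over DN 5 genes could be counted, 1 (Cyr61) was higher and 0 lower, beside 2.23% higher and 10.9% lower among 10527 genes. The comparisons share libraries and are not independent. The median log2 ratio of the 10 genes was 0.27 for DP over DN, 0.37 for DP over PDGFRβ-S and -0.15 for PDGFRβ-S over DN, and that of all 15885 genes with a mean of 1 TPM or more was -0.13, 0.13 and -0.30. Srf and Mkl1 passed the level filter in no comparison.

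Scaling moved the background of these comparisons. Rescaling to nuclear protein-coding genes shifted the median of all genes to -0.37 for DP over DN and to -0.14 for DP over PDGFRβ-S, and the 4 genes higher in DP stayed the same. Relative to the median of all genes on the deposited scale, the log2 ratios of DP over DN of Mkl2 (-0.84), Wwtr1 (-0.71), Tead1 (-0.66), Yap1 (-0.63) and Srf (-0.46) remained below it. Between PDGFRβ-S and DN, the signs for Srf, Myocd, Mkl2, Yap1, Wwtr1, Tead1 and Ctgf turned positive after quantile normalization. The ratios and orders given above for them between these libraries therefore depended on scale, and no direction is drawn from them.

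**Figure D4:**
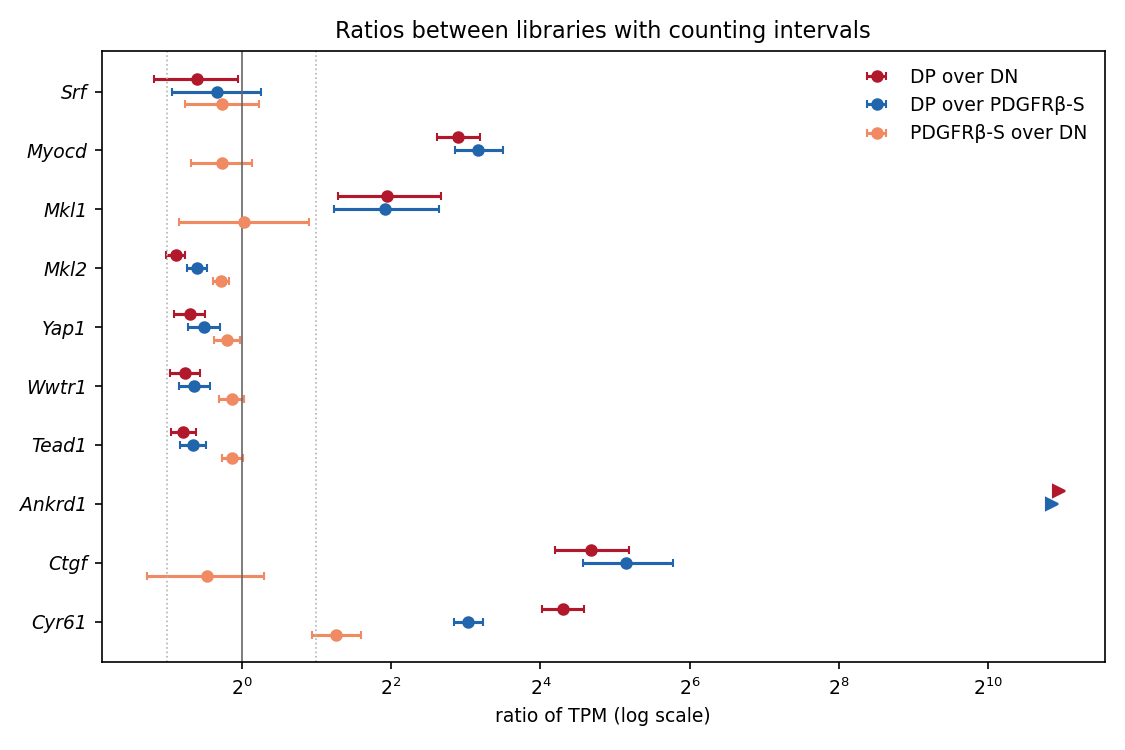
Ratio of TPM (log axis) for DP over DN (red), DP over PDGFRβ-S (blue) and PDGFRβ-S over DN (orange), with 95% counting intervals. Arrowheads mark lower bounds for Ankrd1 at the gene length taken in the text, the solid line marks 1, and dotted lines mark 2-fold. Myocd, Mkl1 and the targets lie right of 2-fold in DP, and the remaining 5 genes lie between 1 and 2-fold lower.

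The partners of SRF were examined next, from a list of cofactors and of genes that set the balance of monomeric and polymerized actin. Of 37 listed genes 34 were measured, and Diaph1, Diaph2 and Diaph3 were not analysed here. For DP over DN, 25 passed the level filter, of which 11 were higher and 1 lower, beside 16.9% and 19.1% of all genes. The median log2 ratio was 0.72. Csrp1, a LIM protein that bridges SRF and GATA factors, was at 289 TPM in DP, against 32.6 in PDGFRβ-S and 28.0 in DN. Actb, the cytoplasmic β-actin and itself a target of SRF, was at 2718, 527 and 675 TPM, and Fhl1, a LIM-only protein of muscle, at 44.3, 7.26 and 10.7 TPM. The 1 lower gene was Scai, which encodes a suppressor of MRTF activity, at 4.54 TPM in DP, against 10.7 in PDGFRβ-S and 12.8 in DN. This call was lost with a pseudocount of 5 TPM.

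The ternary complex factors, which compete with MRTFs for SRF, differed less. Elk1 was at 2.11 TPM in DP, against 2.35 in PDGFRβ-S and 3.75 in DN, Elk3 at 8.37, 9.50 and 10.7 TPM, and Elk4 at 3.87, 2.97 and 4.37 TPM. Elk1 and Elk4 stayed under the 5 TPM limit and could not be called, and Elk3 was called in no comparison. The cGMP-dependent kinase gene Prkg1 (3.31, 5.60 and 7.32 TPM) and Arhgef12, an exchange factor for RhoA (3.90, 5.16 and 6.21 TPM), had the next lowest ratios among the genes that passed the filter and were within the limit. For PDGFRβ-S over DN, 0 of 24 genes of this list were higher and 0 lower, beside 2.23% and 10.9% of all genes.

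Contractile genes, the MRTF-dependent targets of SRF, were mostly higher in DP. All 23 of the 25 listed genes that passed the filter were called higher in DP than in DN, beside 16.9% of all genes. The median log2 ratio of the list was 2.48, and many of its genes are the smooth muscle markers by which the label was checked. Actg2, the actin of visceral smooth muscle, was at 941 TPM in DP, against 3.87 in PDGFRβ-S and 3.39 in DN. Cnn1 (calponin) was at 249, 4.76 and 0.257 TPM, and Acta2 (smooth muscle α-actin) at 6256, 148 and 84.1 TPM. Of the other listed genes, Synpo2 was lower, at 1.48 TPM in DP, against 1.09 in PDGFRβ-S and 2.37 in DN, and under the filter. The lowest ratios above the filter were those of Cald1 (caldesmon; 45.7, 30.9 and 21.9 TPM), Tpm4 (a tropomyosin; 1271, 673 and 598 TPM) and Vcl (vinculin; 99.0, 44.8 and 39.2 TPM). Levels of near-identical actin genes are uncertain, since reads may have been shared among them. For DP over PDGFRβ-S 20 of 23 were higher, beside 28.3% of all genes. For PDGFRβ-S over DN 3 of 15 (Tagln, Myl9 and Mylk) were higher and 1 (Des) lower, beside 2.23% and 10.9%. The call of Des was lost with a pseudocount of 5 TPM, a filter of 10 TPM or quantile normalization.

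Immediate early genes, a class that includes targets of SRF with ternary complex factors, were also mostly more abundant in DP. Of 21 listed genes 12 passed the filter for DP over DN. Among them 8 were higher and 0 lower, beside 16.9% and 19.1% of all genes. The median log2 ratio was 1.94. Ier3 was at 31.8 TPM in DP, against 1.53 in PDGFRβ-S and 1.44 in DN, Atf3 at 10.2, 0.169 and 0.0792 TPM and Egr1 at 8.94, 0.231 and 0.270 TPM. Ier2 (64.4, 36.8 and 53.8 TPM), Mcl1 (41.6, 36.1 and 31.5 TPM) and Btg2 (11.4, 4.51 and 7.33 TPM) were within 2-fold of DN. Such genes also respond to tissue dissociation and sorting, and Cyr61 and Ctgf are known to be induced as quickly. The part of this in the levels of the targets was not tested.

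A published YAP-TEAD target signature, apart from the 3 targets above, had members in both directions. Of 19 listed genes 12 passed the filter for DP over DN, 3 were higher and 3 lower, beside 16.9% and 19.1% of all genes. The median log2 ratio was 0.51. For DP over PDGFRβ-S 4 of 11 were higher and 1 lower, beside 28.3% and 12.5% of all genes. Myof, a membrane repair protein, was at 17.8 TPM in DP, against 1.90 in PDGFRβ-S and 2.54 in DN, Ccdc80 at 45.2, 11.9 and 12.3 TPM and Tgfb2 at 42.5, 18.3 and 17.9 TPM. Those lower in DP than in DN were Foxf2, a forkhead factor, at 3.72, 11.9 and 29.2 TPM, and Asap1 at 6.50, 11.9 and 18.7 TPM. F3, the tissue factor of coagulation, was also lower than in DN but level with PDGFRβ-S, at 4.69, 4.58 and 15.2 TPM. Ankrd1, Ctgf and Cyr61 were thus higher in DP by more than any of these signature genes.

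**Figure D5:**
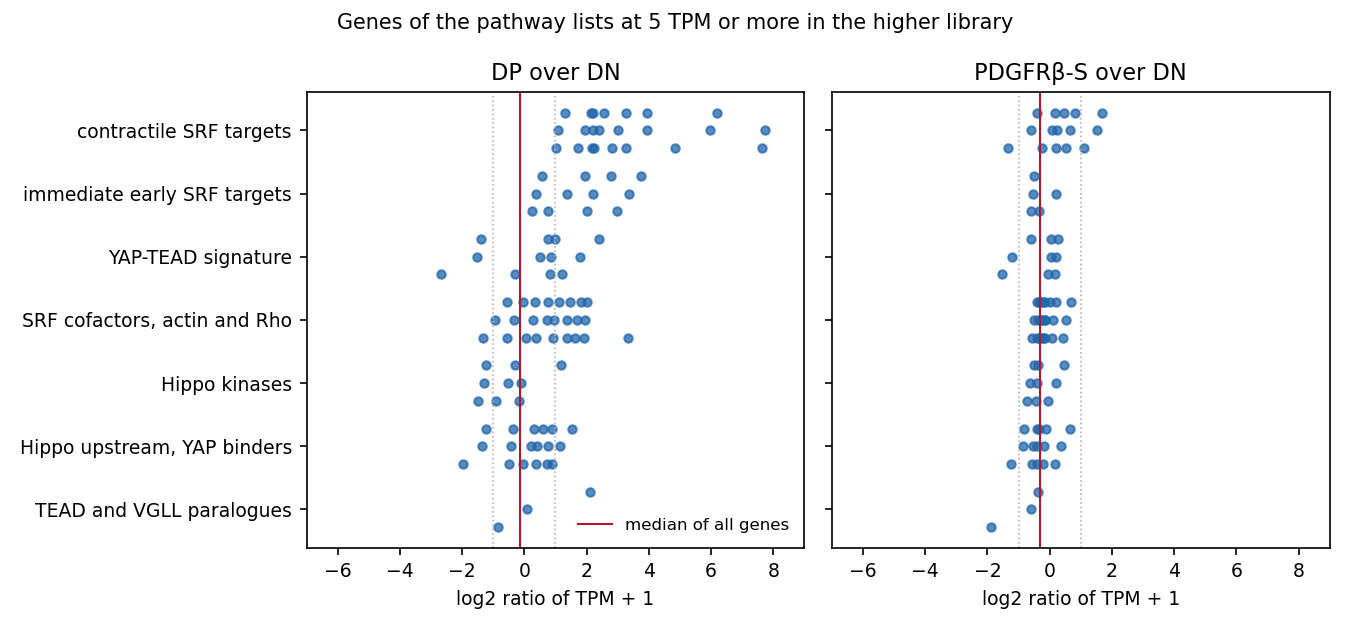
Log2 ratio of TPM + 1 for each gene of the pathway lists that reached 5 TPM in the higher library, for DP over DN (left) and PDGFRβ-S over DN (right). The red line is the median of all genes and dotted lines mark 2-fold. All 23 contractile genes lie right of 2-fold in DP, whereas the YAP-TEAD signature has 3 genes beyond it on each side.

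Relatives of the 3 targets were mostly scarce. Among the other CCN genes Wisp1 was at 46.7 TPM in DP, against 12.8 in PDGFRβ-S and 9.11 in DN and was called higher in DP. Nov had 1.98 TPM in DP, against 0.454 in PDGFRβ-S, and was listed at 0 in DN. DP, PDGFRβ-S and DN had 0.729, 1.53 and 0.859 TPM of Wisp3. Wisp2 and the Ankrd1 relative Ankrd2 were listed at 0 in all 3 libraries, and Ankrd23 was at 0.443, 1.74 and 1.98 TPM. Of its family as listed, Ankrd1 alone exceeded 2 TPM in any library.

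Vestigial-like (VGLL) proteins bind TEADs in place of YAP and TAZ. Vgll3 was at 25.2 TPM in DP, against 0.653 in PDGFRβ-S and 5.07 in DN, so that relative to DN it was called higher in DP and lower in PDGFRβ-S. The second call was lost with a pseudocount of 5 TPM, a filter of 10 TPM, median-of-ratios centring or quantile normalization. Vgll4, a repressor of TEAD targets, was at 7.03, 8.57 and 13.4 TPM, within the limit. Vgll2, of skeletal muscle, was listed at 0 in DP, with 0.459 TPM in PDGFRβ-S and 2.58 TPM in DN, and Vgll1 was listed at 0 throughout. The family sum was 32.2 TPM in DP, against 9.69 in PDGFRβ-S and 21.1 in DN, beside 16.4, 24.5 and 27.4 TPM for Yap1 and Wwtr1 together.

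Hippo kinases and their adaptors, which restrain YAP and TAZ, were mostly within 2-fold on the deposited scale. Of 14 listed genes 9 passed the filter for DP over DN. Among them 1 was higher and 3 lower, beside 16.9% and 19.1% of all genes. The median log2 ratio was -0.51. After rescaling to nuclear protein-coding genes 0 were higher and 5 lower, beside 1307 higher and 3019 lower of 11191 genes over all. With a pseudocount of 5 TPM 0 were higher and 1 lower, beside 1336 and 1245 of 11288 genes. The MST paralogues differed. Stk3 (MST2) was at 22.3 TPM in DP, against 6.71 in PDGFRβ-S and 9.38 in DN, whereas Stk4 (MST1) was at 7.95, 8.69 and 11.8 TPM. Lats1, which phosphorylates YAP, was lower at 4.24 TPM in DP, with 6.63 in PDGFRβ-S and 11.8 in DN, and Lats2 was at 7.38, 10.8 and 9.27 TPM. Taok1, a kinase upstream of MST1 and MST2 (12.3, 23.2 and 36.3 TPM), and the scaffold gene Sav1 (2.56, 10.6 and 7.40 TPM) were the other lower genes. Mob1a (21.6, 18.6 and 24.7 TPM) and Wwc2 (6.55, 6.86 and 7.13 TPM) were nearly level.

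Of the upstream regulators and binding proteins of YAP, 2 of 18 genes were higher and 3 lower in DP than in DN, no more than the 16.9% and 19.1% of all genes, with a median log2 ratio of 0.35. Csnk1d, a casein kinase that marks YAP for degradation, was at 32.6 TPM in DP, against 7.91 in PDGFRβ-S and 10.8 in DN. The angiomotins, which bind YAP and actin, were lower in DP, with Amot at 5.75, 33.2 and 25.5 TPM and Amotl1 at 10.2, 19.7 and 25.4 TPM. Wtip, a LIM protein of the Ajuba family, was at 3.30, 11.2 and 9.96 TPM. Ctnna1 (α-catenin) was at 131, 61.7 and 70.4 TPM, short of the limit against DN.

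Genes with the pattern nearest to each target over the 3 libraries were sought among 7165 protein-coding genes with 10 TPM or more in the highest library, by the Euclidean distance of centered log2(TPM + 1). Nearest to Ankrd1 were Actg2 (distance 0.17), Acta2 (1.76) and Cnn1 (1.88), all contractile genes named above. Nearest to Ctgf were the annexin gene Anxa6 (0.0990; 390 TPM in DP, against 20.0 in PDGFRβ-S and 22.0 in DN), the integrin gene Itga1 (0.12; 53.5, 2.17 and 2.58 TPM) and Mcam, an adhesion molecule of mural cells (0.16; 100.2, 4.85 and 6.37 TPM). Nearest to Cyr61 were Myl9, the regulatory light chain of smooth muscle myosin (0.17; 1249, 172 and 80.1 TPM), Serpinb6b (0.26; 25.8, 2.23 and 0.791 TPM) and Nrarp, which restrains Notch signaling (0.26; 20.1, 2.27 and 0.472 TPM). With only 3 libraries such likeness is loose.

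Ankrd1 and Myocd are also genes of heart and, for Ankrd1, skeletal muscle, so the markers of those tissues were summed. For 13 cardiomyocyte markers the sum was 56.5 TPM in DP, against 25.7 in PDGFRβ-S and 72.6 in DN. Of these, 6 were at 1 TPM or more in DP, against 4 in PDGFRβ-S and 5 in DN. Tnni1 (37.3, 8.35 and 39.6 TPM) and Myl7 (10.5, 12.9 and 16.5 TPM) gave most of each sum, and Tnnt2, Nppa, Myl2 and Nkx2-5 had 0 reads in DP. The sum of 9 measured skeletal muscle markers was 383 TPM in DP, against 49.2 in PDGFRβ-S and 254 in DN. The actin gene Acta1 gave 372 TPM of the DP sum, while Myog had 0 reads in DP and was at 38.0 TPM in DN. Mesothelial markers, summed over 6 genes, were at 88.1 TPM in DP, against 15.2 in PDGFRβ-S and 32.0 in DN, with Krt19 at 30.4 TPM in DP, against 1.21 in PDGFRβ-S and 2.96 in DN. Endothelial markers came to 15.1, 5.42 and 8.57 TPM, and blood markers to 1.81, 2.44 and 2.74 TPM. Pericyte and mural markers came to 534, 89.5 and 65.1 TPM, and sympathetic ones to 6.73, 2.16 and 295 TPM. Erythroid transcripts were at 1438 TPM in DP, against 18829 in PDGFRβ-S and 19071 in DN. The part of cardiac, skeletal muscle, mesothelial and erythroid transcripts in the results above was not tested.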

How the data were processed

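Per the labels and the methods of the study, sorted cells were lysed, cDNA of polyadenylated RNA was made by a Smart-seq2-type protocol, and single reads were sequenced. The submitters' processing notes name TopHat2 2.0.10 and mm10. The authors deposited TPM for 47069 genes, 1 column per library, and rows of the same symbol were summed. No counts were given. Dividing TPM by gene length was undone against GENCODE M21: of 9426 genes with 50 to 5000 reads, 99.99% gave whole reads in all 3 libraries (within 0.0001 read) at a length fitted to the gene, and 66.0% at the annotated sum of exons without merging overlaps. These reads were used for depth, floors, counting intervals, the fold ratios given with them and the shares within families. Ratios were log2((TPM + 1)/(TPM + 1)), called at 2-fold where the higher library reached 5 TPM. With 1 library per population no test was run. Alternatives were pseudocounts of 0.1 and 5 TPM, no filter or 10 TPM, 3 other scalings, reads not divided by length (shares only) and limits of 1.5-fold and 4-fold. The merged exon length was added after the data were seen. Read recovery and calling were checked on simulated data. The genes and the lists of 8 pathway groups and 9 cell types were chosen with earlier results of these data known. Named list genes are the 3 highest and 3 lowest ratios of DP over DN that passed the level filter, all TEAD, VGLL, CCN and ankyrin relatives, the Elk factors, the MST and LATS kinases, the sort genes and the 3 nearest genes of each target, of which 1 is not reported here. The genes called between PDGFRβ-S and DN, Acta1, Myog, Synpo2, the cardiac markers, Krt19, Amotl2 and Gm15270 were named after their values were seen. A second sheet holding a pair of genes was not used. Python 3.11.15, scipy 1.17.1 and pandas 2.3.3 were used.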

Additional observations from a re-analysis of the deposited data

How the results depend on the processing

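The 4 genes higher in DP (Ankrd1, Ctgf, Cyr61 and Myocd) stayed the same against DN and against PDGFRβ-S under all 9 alternatives. The count lower in DP than in DN was 0 on the deposited scale. It was 1 (Mkl2) after rescaling to nuclear protein-coding genes, beside 3019 of 11191 genes over all. After quantile normalization it was 1 (Mkl2), beside 1351 of 9055. At a limit of 1.5-fold it was 4 (Mkl2, Tead1, Wwtr1 and Yap1), beside 3482 of 11288. Against PDGFRβ-S it was 2 (Mkl2 and Wwtr1) after quantile normalization, beside 1470 of 9046. Cyr61 was not called between PDGFRβ-S and DN, a count of 0, with a pseudocount of 5 TPM or at 4-fold. Over all genes the split depended on scaling. For DP over DN it was 1903 higher and 2157 lower, and 1307 and 3019 after rescaling. For DP over PDGFRβ-S it was 2988 and 1323, and 2002 and 2228 after rescaling, 2139 and 2074 after median-of-ratios centring and 1596 and 1470 after quantile normalization. For PDGFRβ-S over DN it was 235 and 1152, and 354 and 790 after that centring and 237 and 290 after quantile normalization, with the median of all genes at -0.12 and 0.02. The cause was not tested. No paired analysis was possible because each population has 1 library. Depth limited Srf and Mkl1, which rested on 24 to 81 reads in a library, Ctgf outside DP (25 and 37 reads) and Ankrd1, with 0 reads outside DP.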
